A study of Homo sapiens with 18 samples.

Results

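HG3 is a cell line established from chronic lymphocytic leukemia (CLL), a leukemia of mature B cells, and it carries Epstein-Barr virus and unmutated IGHV genes according to the study's text. Its 6 libraries, of 18 in the series, were examined here: 3 samples stimulated with CpG-ODN2006 at 2.5 µg/ml for 4 h and 3 unstimulated controls, with 1 stimulated and 1 unstimulated sample in each of replicates 1, 2 and 3. The members are the 13446 genes, of 56609 gene symbols, with a mean of at least 1 CPM (counts scaled to library size) over these 6 libraries. The groups share the line, the medium with 10% serum and the sequencing, so the comparison describes 1 line and not CLL cells in general, and nothing in the sources says that the replicates were separate thaws or weeks, so the P values measure the spread between these samples only.

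TLR9 is a receptor in endosomes of B cells that binds DNA with unmethylated CpG motifs, such as bacterial DNA or the synthetic oligonucleotide used here. It is escorted by UNC93B1 and signals through MYD88, IRAK kinases and TRAF6 to the IKK complex, which releases NF-κB, and to MAP kinases such as ERK. Early NF-κB targets include cytokines and chemokines as well as genes that shape the later response, among them IκBζ, a nuclear cofactor for secondary response genes such as IL6, and nucleases that degrade cytokine mRNA.

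The libraries held 21228773 to 46642886 counts. Unstimulated replicate 2 stood apart from the rest: it had the lowest total, 20.2% of its counts fell on mitochondrially encoded genes against 6.42% to 9.28% in the other 5 libraries, and 11.1% fell on ribosomal protein genes against 6.98% to 8.23%. Its mean distance to the other libraries, on log2 CPM, was 142 against 82.4 to 89.4. The median size of the log2 ratio between stimulated and unstimulated cells was 0.535 in pair 2, 0.171 in pair 1 and 0.139 in pair 3. Results are therefore given for each pair and, where it matters, from pairs 1 and 3 alone, and the part of this library in any result was not tested. The summed level of 9 B-cell markers was 3600 to 6280 CPM per library, whereas 6 T-cell markers summed to 0.433 to 5.59 CPM with CD3D at 0, 6 monocyte markers to 1.03 to 3.56 CPM with CD68 at 0, 4 NK-cell markers to 1 to 3.61 CPM, and 3 erythroid markers to 0 to 0.0875 CPM with HBB at 0.

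**Figure D1:**
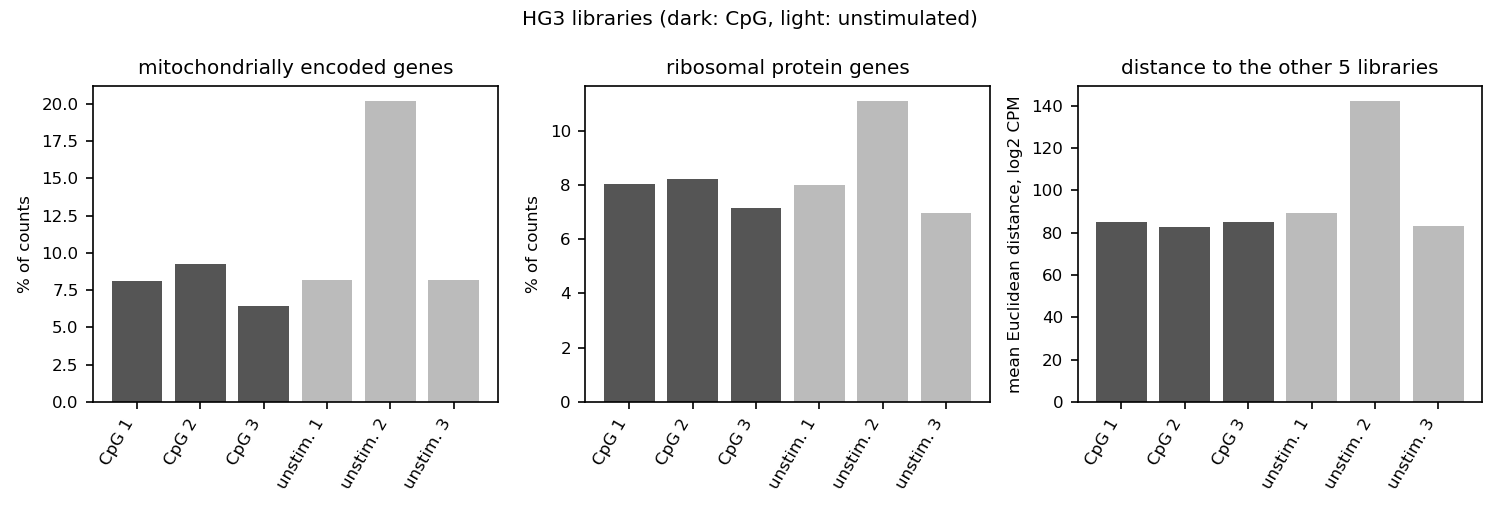
Share of counts on mitochondrially encoded genes (left, %), share on ribosomal protein genes (middle, %) and mean Euclidean distance to the other 5 libraries on log2 CPM (right), with 1 bar for each HG3 library. Unstimulated replicate 2 is the tallest bar in all 3 panels, at 20.2%, 11.1% and 142.

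In HG3, cytokine genes, NFKBIZ, the gene of a nuclear cofactor of NF-κB, and ZC3H12A, which encodes a nuclease that limits cytokine mRNA, stood near the top of the genes that were higher after CpG in all 3 pairs, and 2 mitochondrially encoded transcripts stood among the top genes that were lower. TNF had 84.7 ± 18 CPM after CpG and 49.1 ± 1.49 without it (mean ± SD, n = 3), and LTA had 73.4 ± 41.1 against 32.1 ± 7.32 CPM. In the paired fit over all genes (edgeR's quasi-likelihood test with the replicate as a block), no gene had an adjusted p under 0.05 in either direction, and the smallest adjusted p was 0.967. At an unadjusted P under 0.05, 27 genes were up (0.201% of those tested) and 47 were down (0.35%), 74 in all (0.55%). DESeq2 and limma-voom with the same terms also gave 0 genes at the adjusted p, with 89 and 29 up and 89 and 105 down at the unadjusted P. The adjusted p of every gene given below with its CPM was 0.967, except CCL3 at 0.974, so the values describe these pairs and none passed the test in the fit of all 6 libraries. With the study's definition of a differentially expressed gene, a nominal P value under 0.01 and an absolute Log2FC of at least 1, LTA alone was up (0.00744%) and no gene was down. The paper used limma with this definition and reports far more genes for HG3 in both directions, so the counts are not like for like. In edgeR with all 18 libraries and a lower count limit, chosen after the data were seen, 111 were up and 122 down.

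Regardless of size, 1310 genes (9.74%) were higher after CpG in all 3 pairs and 1493 (11.1%) were lower. With a log2 ratio of at least 0.25 in each pair, 143 genes (1.06%) were higher and 232 (1.73%) were lower. When libraries were scaled by their totals instead of TMM factors, the counts for any size were 1878 higher and 991 lower, so the balance between the directions depends on the scaling. Pair 2 gave the largest of the 3 ratios for 72.8% of the higher genes and for 68.6% of the lower ones, beside 72.2% of all genes. Unstimulated replicate 2 was the lowest of the 6 libraries for 70.8% of the higher genes and the highest for 70% of the lower ones, beside 36% and 35.9% of all genes. The shares of all genes are no fair background here, because a gene higher in all 3 pairs must have its lowest level in an unstimulated library. Likewise, a gene lower in all 3 pairs must have its highest level in one.

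The promoters of a few members are shown because NF-κB acts by binding short DNA motifs, of which GGNNTTTCC was searched on both strands from 250 bases before to 50 bases after each gene start. NFKBIZ has 2 such windows, CXCL8 and TNF 1 each, taken from RefSeq on GRCh38.p14, plus strand, and capitals mark the motif. They lie at chr3:101827740-101828039, chr3:101849264-101849563, chr4:73740319-73740618 and chr6:31575315-31575614.
NFKBIZ, first start: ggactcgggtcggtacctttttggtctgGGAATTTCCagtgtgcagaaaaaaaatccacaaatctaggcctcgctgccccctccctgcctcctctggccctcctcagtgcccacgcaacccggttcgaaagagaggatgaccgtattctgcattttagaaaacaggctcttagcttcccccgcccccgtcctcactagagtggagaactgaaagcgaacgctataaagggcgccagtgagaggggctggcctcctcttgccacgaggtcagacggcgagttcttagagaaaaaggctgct
NFKBIZ, second start: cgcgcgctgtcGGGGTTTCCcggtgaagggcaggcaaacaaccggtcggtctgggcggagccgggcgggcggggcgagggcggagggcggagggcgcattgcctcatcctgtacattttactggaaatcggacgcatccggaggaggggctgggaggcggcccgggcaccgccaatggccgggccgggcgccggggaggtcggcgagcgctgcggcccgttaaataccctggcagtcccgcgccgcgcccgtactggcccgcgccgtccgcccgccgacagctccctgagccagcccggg
CXCL8: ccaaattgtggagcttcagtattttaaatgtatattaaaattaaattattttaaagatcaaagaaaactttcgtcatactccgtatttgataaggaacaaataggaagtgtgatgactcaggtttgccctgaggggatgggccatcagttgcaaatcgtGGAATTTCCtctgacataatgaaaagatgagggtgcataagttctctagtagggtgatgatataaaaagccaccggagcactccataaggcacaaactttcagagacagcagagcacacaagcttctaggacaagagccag
TNF: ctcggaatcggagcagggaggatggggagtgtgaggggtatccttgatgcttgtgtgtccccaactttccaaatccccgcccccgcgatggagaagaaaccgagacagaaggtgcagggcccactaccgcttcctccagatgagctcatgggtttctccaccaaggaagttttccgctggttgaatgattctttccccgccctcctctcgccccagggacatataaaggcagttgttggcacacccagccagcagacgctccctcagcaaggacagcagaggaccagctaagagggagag
The motif begins at base -222 from the first NFKBIZ start, -239 from the second and -91 from that of CXCL8, and these letters are not in the TNF window. Of the genes tested with a promoter in the table, 870 of 9351 held the motif (9.3%), close to the 7 of 81 (8.64%) among the genes at least 0.25 higher in all pairs and the 9 of 119 (7.56%) among those at least 0.25 lower. In the list of NF-κB subunits and targets, 18 of 36 held it (50%), as did 7 of the 14 members that were higher in all pairs, namely BIRC3, CXCL8, ICAM1, NFKBIZ, REL, TNFAIP3 and TNIP1. A match is a description of the sequence and not evidence of binding.

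Among the cytokines, TNF (chromosome 6, 31575565 to 31578336, GRCh38), the founding member of its ligand family, had 99.96, 89.2 and 64.8 CPM in CpG replicates 1, 2 and 3, and 48.8, 50.7 and 47.8 CPM in the unstimulated ones. Every stimulated library was above every unstimulated one. The Log2FC was 0.76 ± 0.18 (SE). LTA, which encodes lymphotoxin alpha and lies beside TNF at 31572054 to 31574324, had 119, 60.97 and 39.98 CPM after CpG and 39.4, 24.8 and 32.1 CPM without it. The groups did not overlap, but the ratio was 1.60 and 1.3 on the log2 scale in pairs 1 and 2 and 0.32 in pair 3, for a Log2FC of 1.08 ± 0.27. Groups without overlap and with CpG higher occurred for 1.21% of all genes tested, and with CpG lower for 1.16%.

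CXCL8, the neutrophil chemokine also called IL-8, had 2.87, 2.55 and 14.5 CPM after CpG and 1.03, 1.21 and 8.20 CPM without it. Replicate 3 had a far higher level than the others under both conditions, so the groups overlapped although each pair moved up, by 1.42, 1.04 and 0.81 on the log2 scale (Log2FC 1.11 ± 0.33). CCL4, a chemokine for T cells and monocytes that was chosen after its values were seen, had 125, 161 and 170 CPM against 83.2, 96.4 and 157 CPM, higher in each pair with overlapping groups. Reads of CCL4 and its near-identical copy CCL4L2 may have been divided between them. CCL3, likewise chosen after its values were seen, was at 0.49 and 0.38 on the log2 scale in pairs 1 and 3 and at -0.54 in pair 2. IL6 was under the 1 CPM limit, with 22, 5 and 7 counts after CpG and 11, 0 and 4 counts without it.

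A further 7 genes that the paper names were under the same limit and were not tested, so only their counts are given. The paper lists them as changed by CpG in this same sequencing, all but AL139011.1 in HG3. The counts below are thus how the genes were chosen and no separate evidence of a response. ZNF385C had 30, 31 and 15 counts after CpG against 5, 0 and 3, and OSBPL1A had 22, 12 and 7 against 5, 0 and 0. PLXDC1 had 4, 10 and 11 counts, AC106881.1 had 21, 7 and 2, and AC090220.1 had 7, 13 and 2, each against 0 in all unstimulated libraries. CD1D, an antigen-presenting molecule for lipids, had 0 in all stimulated libraries against 9, 4 and 7. AL139011.1 had 24, 32 and 53 counts against 40, 20 and 34.

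Regulators of the response were also among the higher genes. NFKBIZ (chromosome 3, 101827991 to 101861022) encodes IκBζ, the nuclear cofactor named above, and had 194, 197 and 272 CPM after CpG against 119, 99.2 and 205 CPM. The level in unstimulated replicate 3 was above that of CpG replicates 1 and 2, so the groups overlapped, and the Log2FC was 0.70 ± 0.18. ZC3H12A (chromosome 1, 37474580 to 37484377) encodes the endoribonuclease Regnase-1, a negative regulator, and had 112, 110 and 138 CPM against 58.2, 86.7 and 96.0 CPM. Its groups did not overlap, and the Log2FC was 0.60 ± 0.18. Another decay factor for cytokine mRNA, ZFP36, went the other way, with 96.4, 83.3 and 71.7 CPM after CpG against 126, 111 and 92.1 CPM and ratios of -0.38, -0.42 and -0.36 on the log2 scale. Its Log2FC was -0.39 ± 0.15.

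TCFL5, a basic helix-loop-helix transcription factor known mainly from germ cells, had 18.7, 23.2 and 13.4 CPM after CpG against 8.24, 12.8 and 9.49 CPM, without overlap (Log2FC 0.85 ± 0.23). TOMM40L, related to the channel of the mitochondrial outer membrane, also separated the groups, with 16.7, 12.04 and 12.7 CPM against 11.2, 7.70 and 7.69 CPM. The remaining 3 of the 10 higher genes with the smallest P values were LINC00926, a long noncoding RNA, INSIG1, which holds the sterol sensor complex in the endoplasmic reticulum, and MFSD2A, a transporter of lysophospholipids. Their Log2FC values were 0.93 ± 0.29, 0.53 ± 0.17 and 0.54 ± 0.20, and in each of them the groups overlapped, as for INSIG1 with 384, 356 and 745 CPM against 264, 214 and 602 CPM.

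**Figure D2:**
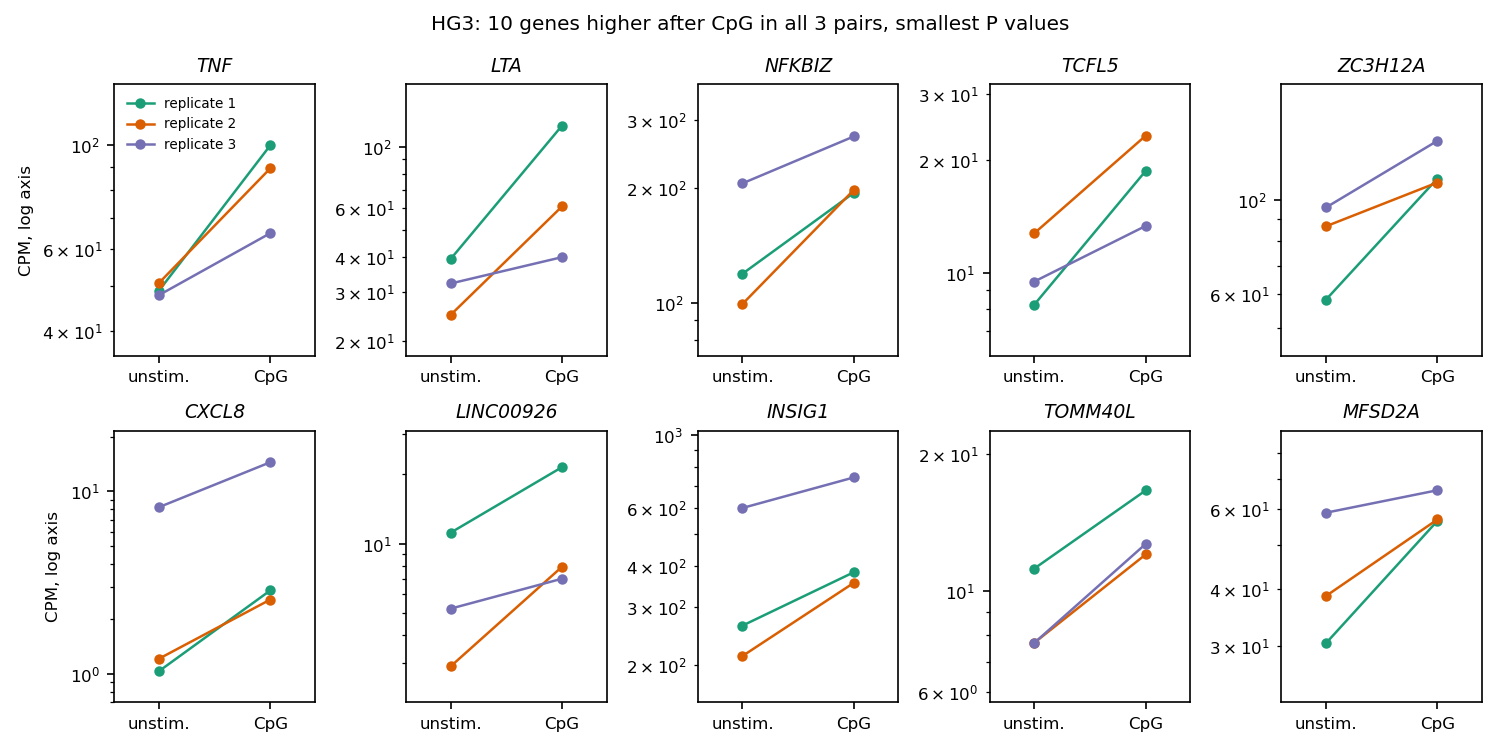
CPM on a log axis in unstimulated and CpG-stimulated HG3 cells for the 10 genes with the smallest P values among those higher in all 3 pairs, with a line joining the libraries of each replicate. All 30 lines rise, TNF from a range of 47.8 to 50.7 CPM to one of 64.8 to 99.96 CPM, and CXCL8 and INSIG1 show the replicate 3 libraries above the rest.

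As a group, 18 of the 42 tested NF-κB subunits and targets (42.9%) were higher in all 3 pairs and 0 were lower, beside 9.74% and 11.1% of all genes. The median Log2FC of the list was 0.17, against 0.01 over all genes, and none of its members had an adjusted p under 0.05. By pair, 40, 27 and 27 of the 42 were higher. Of the 18, 5 reached 0.25 in every pair, namely TNF, LTA, CXCL8, NFKBIZ and ZC3H12A. Among the subunits, named after their values were seen, REL had 75.9, 75.7 and 220 CPM against 67.9, 26.3 and 206 CPM, and RELB had 122, 123 and 168 CPM against 93.6, 118 and 158 CPM. NFKB1 was higher in pairs 1 and 2, with 427 and 382 CPM against 332 and 123, but not in pair 3, with 612 against 625. The activation marker CD83 had 475, 485 and 784 CPM against 354, 333 and 738 CPM. For REL and NFKB1 the ratio of pair 2 exceeded the others, at 1.52 and 1.63 on the log2 scale, and unstimulated replicate 2 had the lowest level of the 6 libraries.

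**Figure D3:**
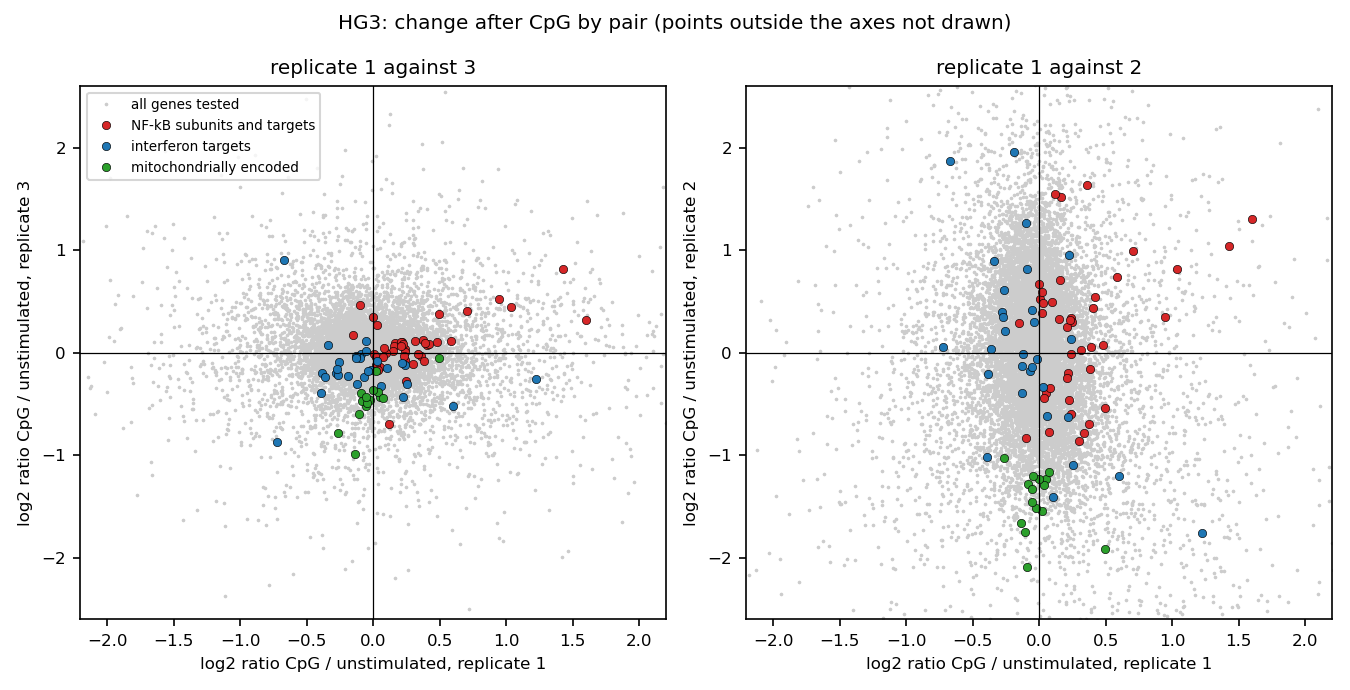
Log2 ratio between the CpG and unstimulated libraries in pair 1 (horizontal) against pair 3 (left) and pair 2 (right), 1 point for each tested gene, with NF-κB genes in red, interferon targets in blue and mitochondrially encoded genes in green. In pair 1, 40 of 42 red points lie to the right of 0, while 5 of the 15 green points lie to the right of 0 in pair 1 and all 15 lie below 0 in pairs 2 and 3.

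Early response genes of the ERK pathway were higher in all pairs in 9 of 35 (25.7%), and 1 (2.86%), ZFP36, was lower, beside 9.74% and 11.1% of all genes. They included the dual-specificity phosphatases DUSP4, DUSP5 and DUSP10 and the transcription factors EGR3 and KLF6, and MYC had 443, 351 and 552 CPM against 389, 146 and 537 CPM, so that the pairs outside pair 2 differed by 0.19 and 0.04 on the log2 scale. MAP3K8, the kinase that links IKK to ERK, was chosen after its values were seen and had 62.0, 69.0 and 91.8 CPM against 40.7, 56.6 and 76.5 CPM. SKIL, an inhibitor of SMAD proteins chosen in the same way, had 37.1, 23.8 and 41.7 CPM against 25.5, 17.98 and 31.1 CPM. Both genes were higher in each pair, with overlapping groups.

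Glycolysis and hypoxia genes were higher in 6 of 31 (19.4%) and lower in 2 (6.45%), beside 9.74% and 11.1% of all genes, with hexokinase HK2 at 123, 103 and 138 CPM against 98.4, 68.4 and 116 CPM (Log2FC 0.38 ± 0.16) and the glucose transporters SLC2A1 and SLC2A3 among the 6. Over 23 other settings the Log2FC of HK2 ran from 0.18 to 0.54. In pairs 1 and 3 alone the list had 7 higher (22.6%) and 6 lower (19.4%), near the 22% and 23.9% of all genes. Unfolded protein and integrated stress response genes were higher in 5 of 28 (17.9%) and lower in 0, among them HSPA5, HERPUD1 and SLC7A11. Without the block and with 1 library left out, the Log2FC of these 3 turned negative in some fits, down to -0.0764, -0.133 and -0.737. In pairs 1 and 3 alone, 12 of the 28 (42.9%) were higher and 4 (14.3%) were lower, beside 22% and 23.9% of all genes. In all 3 pairs, the 37 genes of G1/S and DNA replication were higher in 4 (10.8%) and lower in 0. The 38 of G2/M and mitosis were higher in 2 (5.26%) and lower in 5 (13.2%), beside 9.74% and 11.1% of all genes. In heat shock chaperones 2 of 22 were higher, and HSPA8, chosen after its values were seen, had 3999, 2360 and 3330 CPM against 3824, 526 and 3264 CPM, a difference that lay almost wholly in pair 2.

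**Figure D4:**
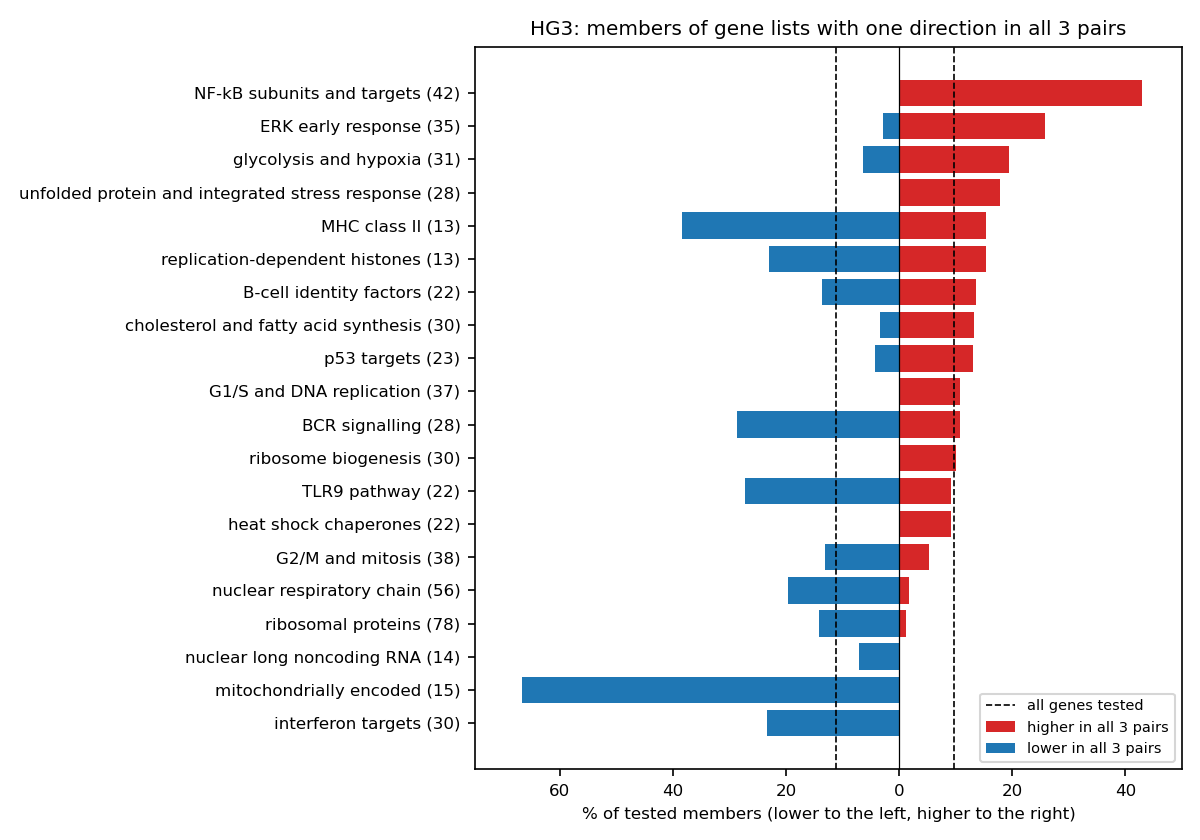
Percent of tested members in each gene list that were higher (right, red) or lower (left, blue) after CpG in all 3 HG3 pairs, with the number tested in parentheses and dashed lines at the values for all genes, 9.74% and 11.1%. NF-κB genes reach 42.9% on the right, and mitochondrially encoded genes 66.7% on the left.

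Of all lists, that of mitochondrially encoded transcripts had the highest share of members lower in all pairs, with 10 of 15 (66.7%) lower and 0 higher, and a median Log2FC of -0.61. The median ratio was -0.05 in pair 1, -1.34 in pair 2 and -0.44 in pair 3, so the difference was largest in pair 2, which holds the control rich in mitochondrial counts, and smallest in pair 1. MT-ATP8, a subunit of ATP synthase, had 313, 511 and 185 CPM after CpG against 376, 1045 and 317 CPM (Log2FC -0.69 ± 0.20). MT-ND6, a complex I subunit encoded on the other strand of the mitochondrial genome, had 216, 109 and 65.1 CPM against 238, 347 and 130 CPM (Log2FC -0.93 ± 0.29). In both genes a stimulated library lay above an unstimulated one of another replicate. MT-ATP8 ends at base 8572 of the mitochondrial genome and MT-ATP6 begins at 8527, so reads in the overlap cannot be assigned to either with certainty.

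Ribosomal protein genes and nuclear genes of the respiratory chain were lower mainly in pair 2. Of 78 ribosomal protein genes, 11 (14.1%) were lower in all pairs, near the 11.1% of all genes, and 1 was higher, and their median ratio was 0.01 in pair 1, -0.71 in pair 2 and 0.02 in pair 3. Of 56 nuclear respiratory chain genes, 11 (19.6%) were lower and 1 was higher, with medians of -0.00, -0.69 and 0.03. The same library had 20.2% mitochondrial counts, and its part in these values was not tested.

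The other lower genes with the smallest P values had mixed functions and overlapping groups, and all but XAF1, which is described with the interferon targets, had at most 25.7 CPM in any library, the level of MAP3K12 in unstimulated replicate 2. ZNF880, a zinc finger protein, had 1.23, 2.73 and 0.498 CPM after CpG against 4.35, 6.54 and 1.39 CPM, with ratios of -1.77, -1.25 and -1.39 that were alike in the pairs (Log2FC -1.52 ± 0.44). GPER1, a membrane receptor for estrogen, had 5.11, 7.92 and 4.92 CPM against 7.45, 19.3 and 9.30 CPM. LYL1, a transcription factor of blood cell development, had 8.07, 5.69 and 3.72 CPM against 14.6, 14.2 and 5.46 CPM. The lower level in each pair is how these 3 genes were chosen, and the replicates differed in level. NPW, GBGT1 and MAP3K12, which encode a neuropeptide, a glycosyltransferase and a neuronal stress kinase, and ARHGEF39 had Log2FC values from -2.18 to -0.79. NPW, at -2.18, had 11, 24 and 4 counts after CpG against 32, 73 and 35, and it passed the 1 CPM limit only through the unstimulated group, with a mean of 0.363 against 1.84 CPM and 4.02 CPM in replicate 2. BCL6, the repressor of germinal center B cells, chosen after its values were seen, stood at 0, 0.813 and 0.673 CPM against 0.290, 4.40 and 0.839 CPM, of which the first stimulated library had no count, and 3 counts there would be 0.0755 CPM. It too passed the limit only through the unstimulated group, and there through replicate 2, so its place among the tested genes rests on that library.

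**Figure D5:**
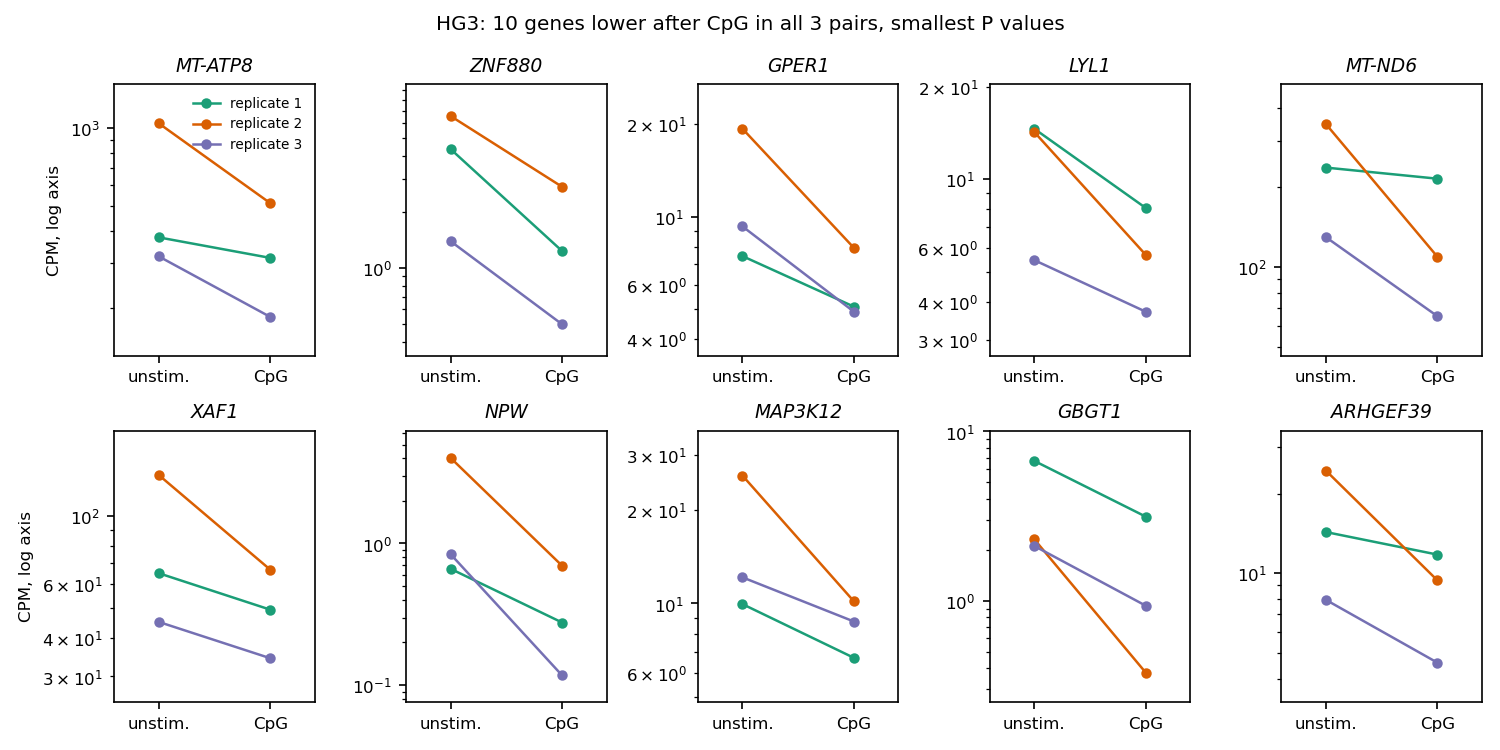
CPM on a log axis in unstimulated and CpG-stimulated HG3 cells for the 10 genes with the smallest P values among those lower in all 3 pairs, with a line joining the libraries of each replicate. All 30 lines fall, and the unstimulated replicate 2 point is the highest of the 6 in several panels, as in MT-ATP8 at 1045 CPM.

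Interferon targets were lower in all pairs in 7 of 30 (23.3%) and higher in 0, beside 11.1% and 9.74% of all genes. XAF1, an interferon-induced promoter of apoptosis, had 49.5, 66.8 and 34.4 CPM after CpG against 65.0, 136 and 45.1 CPM (Log2FC -0.60 ± 0.19). The antiviral enzyme OAS1 had 57.1, 57.5 and 29.5 CPM against 74.6, 66.5 and 33.8 CPM. Pairs 1 and 3 of IFIT1 were at -0.72 and -0.88 on the log2 scale and pair 2 at 0.05, while ISG15 was at 0.10, -1.41 and -0.15. The median Log2FC of the list was -0.09.

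Within the TLR9 pathway itself, 6 of 22 genes (27.3%) were lower in all pairs and 2 (9.09%) were higher, beside 11.1% and 9.74% of all genes. The median Log2FC of the list was nevertheless 0.14, with medians of -0.03, 0.32 and -0.03 in pairs 1, 2 and 3, so the median of pair 2 had the opposite sign. In pairs 1 and 3 alone, 11 of the 22 (50%) were lower and 4 (18.2%) were higher, beside 23.9% and 22% of all genes. UNC93B1, which carries TLR9 to endosomes, had 44.4, 31.9 and 19.7 CPM after CpG against 46.5, 55.7 and 28.0 CPM, and the transcription factor IRF7 had 60.5, 53.4 and 36.9 CPM against 63.2, 117 and 47.8 CPM. MYD88, CNPY3, IRAK2 and SLC15A4 were lower by less, and TRAF3, a brake on noncanonical NF-κB signalling, was higher with 207, 195 and 228 CPM against 187, 143 and 218 CPM. In B-cell receptor signalling, 8 of 28 (28.6%) were lower and 3 (10.7%) higher in all pairs, beside 11.1% and 9.74% of all genes, and the median Log2FC was 0.03. Of the 8, the inhibitory genes CD22, PTPN6 and DOK3 and the receptor subunit CD79A had Log2FC values from -0.44 to -0.32. These rested largely on pair 2, as PTPN6 with -0.24, -1.07 and -0.01 shows, and without replicate 2 they were from -0.15 to -0.09. Of 9 B-cell markers, 5 (55.6%) were lower in all pairs and 1 was higher, and 6 (66.7%) were lower in both of pairs 1 and 3, beside 23.9% of all genes. Of 13 MHC class II genes, which present antigen to T cells, 5 (38.5%) were lower and 2 (15.4%) higher, among them HLA-DMA and CD74 with ratios of -0.86 and -0.67 in pair 2 and of -0.17 or nearer to 0 in the other pairs. Some B-cell markers are also members of the receptor signalling list. None of these genes had an adjusted p under 0.05. Fewer cells expressing a gene and less RNA per cell cannot be told apart in bulk RNA.

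Single libraries moved many of these estimates. Over the fits that left out 1 library without the block, or 1 pair with it, TNF ran from 0.63 to 0.95, TCFL5 from 0.67 to 1.06, TOMM40L from 0.48 to 0.84 and LYL1 from -1.31 to -0.71. LTA was at 0.65 without CpG replicate 1, which is under the limit of 1 in the definition it met, and at 1.49 without CpG replicate 3. INSIG1 was at 0.04 without CpG replicate 3 and at 1.05 without unstimulated replicate 3, and LINC00926 at 0.21 without CpG replicate 1 and at 1.57 without unstimulated replicate 1. Without unstimulated replicate 2, MT-ATP8 was at -0.04, XAF1 at -0.13, MAP3K12 and ARHGEF39 at -0.37, GPER1 at -0.48, MT-ND6 at -0.50, ZNF880 at -0.95 and NPW at -1.04. Without unstimulated replicate 1, GBGT1 was at -0.57 and MFSD2A at 0.29. NFKBIZ was at 0.45 without unstimulated replicate 2 and ZC3H12A at 0.39 without unstimulated replicate 1, and both stayed above 0 in all these fits.

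Without replicate 2, the fit of 4 libraries with 1 residual degree of freedom put 22 genes past an adjusted p of 0.05, of which 19 were up and 3 down. TNF was at 0.74 (adjusted p = 6.61e-06, edgeR), ZC3H12A at 0.73 (1.7e-06), NFKBIZ at 0.56 (0.000201) and INSIG1 at 0.42 (0.0032) on the log2 scale, with MFSD2A, CD44 and CCL3 also up. The other genes that rose were MT-TP, AL138963.3, MIF-AS1, MYL5, BEST1, AC011603.2, AP003465.1, AC134772.1, SOX9, AC125611.3, NDUFB2-AS1 and HNF4A, which belong to none of the lists used here. Some of them went the opposite way in the omitted pair, as SOX9 with 4.16 and 0.98 in pairs 1 and 3 and -3.17 in pair 2, and AL138963.3 with -2.28 in pair 2. CXCL8 was at 1.10 with an adjusted p of 0.126, and LTA, at 0.97, had an adjusted p of 1. LTA did pass in 2 settings chosen after the data were seen, with an adjusted p of 0.00122 in limma-voom with sample quality weights, where TNF and ZC3H12A had 0.00905, and of 0.000908 in edgeR with all 18 libraries and a lower count limit. The 3 genes that fell were MT-ATP8, MT-ND6 and MT-ND2, while the mitochondrial tRNA gene MT-TP, which is not in the list of 15, rose by 1.18 (adjusted p = 0.000855, edgeR). Of the 42 NF-κB genes, 25 (59.5%) were higher in both remaining pairs and 0 were lower, beside 22% and 23.9% of all genes. For interferon targets it was 0 and 17 of 30 (56.7%), for B-cell receptor signalling 3 and 17 of 28 (60.7%), and for mitochondrially encoded genes 0 and 10 of 15 (66.7%). In ribosomal protein genes, 18 (23.1%) were higher and 11 (14.1%) lower without pair 2. Of 35 early response genes of the ERK pathway, 17 (48.6%) were higher and 4 (11.4%) lower in pairs 1 and 3.

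The same contrast in MEC2 and PCL12, the other CLL lines of the series, used different libraries. Of the 1310 genes higher in all 3 HG3 pairs, 253 (19.3%) were higher in all 3 MEC2 pairs and 230 (17.6%) in all 3 PCL12 pairs, beside 11.4% and 10% of all genes, and for the 143 with at least 0.25 in each HG3 pair it was 37 (25.9%) and 29 (20.3%). Of the 10 higher genes with the smallest P values, 9 and 8 were higher in all pairs of these lines. Of the 1493 genes lower in HG3, 222 (14.9%) were lower in all 3 pairs in MEC2 and also 222 (14.9%) in PCL12, beside 11.8% and 10.4% of all genes, and for the 232 with at least 0.25 it was 18 (7.76%) and 35 (15.1%). Of the 10 lower genes with the smallest P values, 0 and 2 were lower in all pairs of these lines. In a fit of all 18 libraries, 8 genes passed the adjusted p upward in MEC2 (0.0595%), 2 in PCL12 (0.0149%) and 0 in HG3, and NFKBIZ and ZC3H12A were among them in both other lines. The difference of the Log2FC, HG3 minus MEC2, was -1.46 for NFKBIZ (adjusted p = 0.877, edgeR), -1.14 for ZC3H12A (adjusted p = 0.943) and -0.04 for TNF. The unadjusted P values of that edgeR fit were 0.00021, 0.00063 and 0.872. HG3 minus PCL12 was -0.98 for NFKBIZ (unadjusted P = 0.0045, edgeR), -0.83 for ZC3H12A (0.006) and -0.11 for TNF (0.688). None of the 3 passed in either comparison when adjusted over all genes tested, which does not show that the lines respond alike. The PCL12 values come with a limit. A set of 45 genes was picked for a high level in MEC2 and a low one in both replicate 1 libraries of PCL12, and in the other 4 PCL12 libraries the median gene of this set reached 29% to 31.3% of its MEC2 level.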

How the data were processed

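Gene counts of the 6 HG3 libraries were taken from the table that the authors deposited, raw counts per gene symbol without normalization. Per the submitters' processing notes the reads passed FastQC, MultiQC, Trimmomatic, STAR and featureCounts on hg38. Library preparation was a stranded 3′ tag kit per the labels, which differ from the paper in the RNA kit. Which annotation was used and whether duplicate reads were removed is not given in the sources used here, so limits for counts of 0 (3 counts, 0.0621 to 0.165 CPM) cover counting error only. Genes averaging 1 CPM or more were kept (13446). Counts were scaled by TMM and fitted in edgeR 4.0.16 (R 4.3.3, robust quasi-likelihood, 2 residual degrees of freedom) with treatment and replicate, and P values were adjusted by Benjamini-Hochberg over all genes tested. CPM values are TMM-scaled, and log2 ratios within pairs used a prior count of 2.

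The replicate numbers pair the samples, as the series' description gives each replicate series 1 stimulated and 1 unstimulated sample. Deviations from group means correlated at 0.311, 0.245 and 0.56 for equal numbers and at most 0.00876 for others. No libraries were duplicates (chi-square 57.6 to 429 per gene).

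The members and gene lists were chosen with earlier results of these data known. Named genes were the 10 with the smallest P in each direction among those alike in all pairs, up to 4 per list, and the genes the paper names. Other members of lists, and the genes marked so, were named after their values were seen. Scripts were tested on simulated data. Alternatives were no block, 18 libraries, RLE or total scaling, no mitochondrial genes, filterByExpr and other filters, DESeq2 1.42.0, limma 3.58.1 voom and trend, and each replicate or library left out. Promoters came from RefSeq and positions from GENCODE.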

Additional observations from a re-analysis of the deposited data

How the results depend on the processing

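The replicate block changed no call at an adjusted p under 0.05: without the block 0 genes passed in either direction, and the count of up genes by the study's definition was 0 instead of 1. By that definition, up and down counts were 7 and 2 with 18 libraries, 2 up with library totals, 2 and 3 at a minimum of 10 counts, 6 and 4 without pair 3, 5 and 9 with no filter, 3 and 7 with DESeq2, and 2 down with limma-voom. Leaving out a replicate pair or a single library gave 0 to 35 up and 0 to 16 down by that definition, 0 to 19 up and 0 to 3 down at the adjusted p, and 2879 to 3490 genes higher and 3133 to 3384 lower in both remaining pairs, where fewer pairs must agree. Among the planned settings, genes passed the adjusted p only without replicate 2. Genes higher in all 3 pairs numbered 2618 at a minimum of 10 counts and 2507 with no filter, and genes lower numbered 2321 and, with library totals, 991. Chosen after seeing the data, voom with sample quality weights gave 4 up and 4 down at the adjusted p and 11 and 9 by the study's definition, and 18 libraries with at least 10 counts over all of them gave 20 and 23, and 111 and 122. The cause was not tested. For 47 of the named genes, 1040 of the values under 23 settings kept their direction and side of the threshold, 19 newly passed it and 14 changed sign, each with a library or pair left out. The range with libraries or pairs left out was -0.37 to 2.56 for CXCL8 and -1.08 to 0.16 for ISG15. Without unstimulated replicate 2 and the block, MYC was at -0.0454, REL at -0.144, NFKB1 at -0.0161 and HSPA8 at -0.133, and without CpG replicate 3 REL was at -0.40, CCL3 at -0.0517 and RELB at -0.00718. CCL3 was at -0.0816 and -0.0241 without pairs 1 and 3, and at -0.221 and -0.0782 without unstimulated replicates 1 and 3, and RELB at -0.00179 without unstimulated replicate 1.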
